A study of Mus musculus with 6 samples.

Results

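Il2, Gsdmd and H2-M2 are the 3 immune genes followed here in the RNA of plasma extracellular vesicles (EVs). Each is represented by 1 mRNA probe on a mouse small RNA array, and together they make up 3 of the 50 mRNA probes and 3 of the 14242 distinct probes of the array. They were chosen by gene name and probe identifier, not by a rule on their measured values, though with earlier results of these data known. EVs came from the plasma of non-cancer mice (non-cancer-EVs) and of mice bearing tumors of LLC cells, a Lewis lung carcinoma line of mouse origin (cancer-EVs), with 3 samples in each group and 1 array per sample. The labels call the vesicles exosomes and give neither strain nor age, while the study's methods name C57BL/6J as the strain of its mice, obtained as young adults, and ultracentrifugation as the isolation. The study asked what EVs of tumor-bearing mice do to the heart after ischemia and reperfusion, and the array compared the RNA they carry. Nothing in the labels says whether a sample is 1 mouse or a pool, so p-values measure the spread between these samples only. LLC is a single transplanted line, which limits the cancer group as a model of lung cancer.

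Il2 encodes interleukin-2, the growth factor that activated T cells secrete and that drives the expansion of T cells through its receptor. Gsdmd encodes gasdermin D, which is cleaved by inflammatory caspases and then forms pores in the plasma membrane, the executing step of the inflammatory cell death called pyroptosis. H2-M2 encodes a nonclassical class I molecule of the mouse major histocompatibility complex, a relative of the classical molecules that display peptides to T cells. EVs are membrane particles released by cells, and their RNA includes small RNAs as well as mRNAs and fragments of mRNAs. RNA was labeled at its 3′ end with a single dye, Cy3, starting from total RNA, so a probe signal does not tell an intact mRNA from a fragment of it.

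None of the 3 genes differed between cancer-EVs and non-cancer-EVs beyond the spread of the arrays. In the means, Il2 was 1.02-fold, Gsdmd 1.07-fold and H2-M2 1.24-fold lower in cancer-EVs, with 3 arrays in each group. The 95% interval of Gsdmd lay within a fold change of 1.4 on either side, the cutoff of the study's methods. This bound did not hold under 7 of 19 other settings: without normalization between arrays, with the replicate number or the slide row as a block, and without non-cancer-EVs 2, non-cancer-EVs 3, cancer-EVs 1 or cancer-EVs 2. The interval of H2-M2 left out a rise of that size, except without normalization, but not a fall, except with cyclic loess normalization.

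The probes were A_51_P114222 for Il2, A_51_P172231 for Gsdmd and A_51_P191463 for H2-M2, each printed on 10 spots per array. All 180 spots of the 3 probes on the 6 arrays were well above background and 0 were saturated. Of these, 5 carried an outlier mark of the extraction software and were left out: 4 of H2-M2 and 1 of Il2. Set against the 77 negative control spots of its array, by their median, the mean signal of a probe was at least 59.3 times and at most 1427 times as high. The median of all non-control spots of an array was itself 20.6 to 42.0 times as high as that of its negative controls. Signal height alone therefore does not show that the named mRNA was present. Over the whole array, median signals of non-control spots ranged from 24.7 to 44.2 and the share of spots well above background from 89.7% to 98.3%.

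Before normalization between arrays, Il2 spots had a mean intensity of 118, 90.7 and 194 in non-cancer-EVs 1, 2 and 3, whereas the cancer-EVs arrays gave 79.5, 217 and 142 in the same order. The median signals of the same arrays were 28.9, 24.7 and 42.9 in non-cancer-EVs and 26.1, 44.2 and 33.9 in cancer-EVs. The arrays of cancer-EVs 2 and non-cancer-EVs 3 were thus the brightest as a whole and gave the highest Il2 intensities, and those of non-cancer-EVs 2 and cancer-EVs 1 were the dimmest and gave the lowest. Gsdmd intensities were 81.7, 71.0 and 127 in non-cancer-EVs and 79.4, 118 and 81.0 in cancer-EVs. For Gsdmd too, the same pair of bright arrays gave the highest intensities. H2-M2 intensities were 1048, 873 and 1457 in non-cancer-EVs and 712, 1128 and 1097 in cancer-EVs. Here too the same bright pair gave the highest intensities and the same dim pair the lowest. Only the array of non-cancer-EVs 3 stood clearly above the rest, and cancer-EVs 2 exceeded cancer-EVs 3 only slightly.

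**Figure D1:**
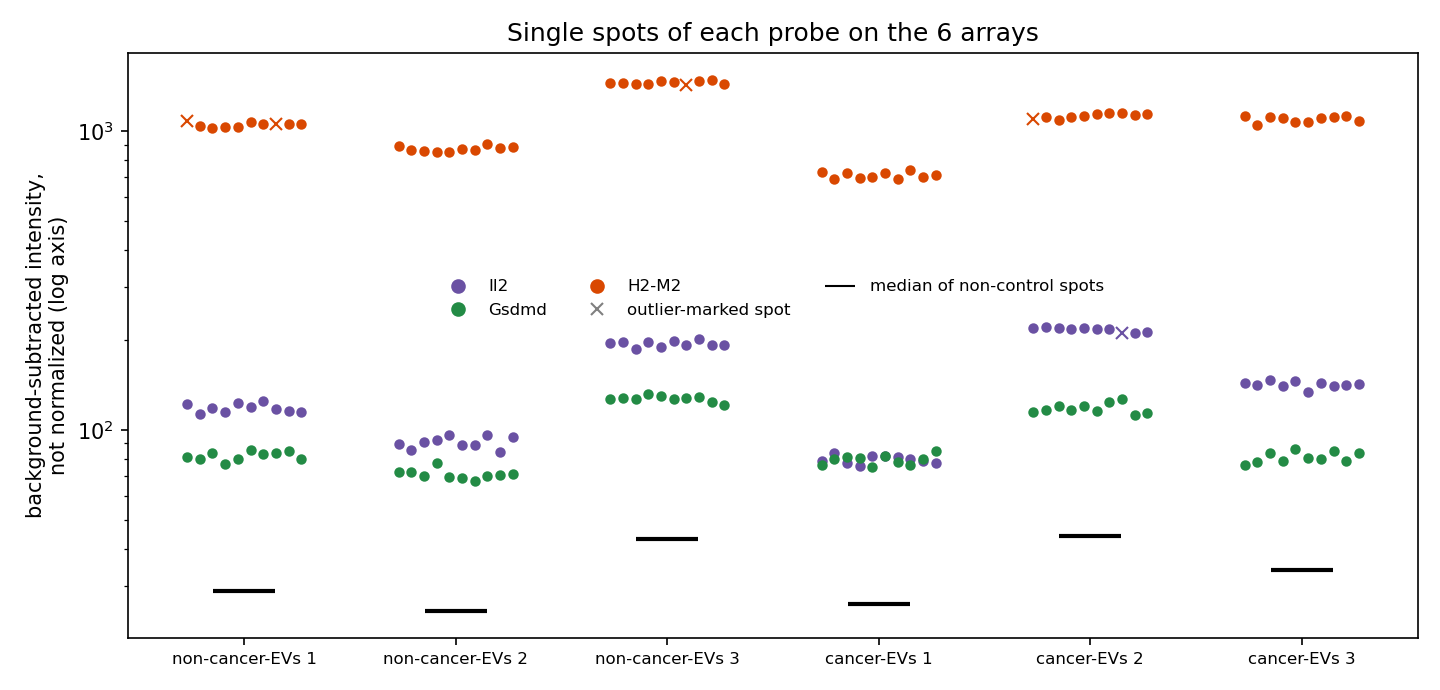
Background-subtracted intensity of every spot of the Il2, Gsdmd and H2-M2 probes (log axis, not normalized) on each of the 6 arrays, with crosses for outlier-marked spots and black bars for the median of all non-control spots of the array. The 10 spots of a probe lie close together on each array, and the Il2 and Gsdmd spots move up and down with the black bars.

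Spots of one probe on one array agreed closely. Their coefficient of variation was between 1.29% and 4.45% over the 3 probes and 6 arrays, and their SD on the log2 scale was at most 0.064. Spots on one array share its RNA and are not replicates of the groups.

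After quantile normalization, which gives all arrays the same distribution of signals, the log2 signal of Il2 was 7.12, 6.92 and 7.20 in non-cancer-EVs 1, 2 and 3. In cancer-EVs 1, 2 and 3 it was 6.65, 7.36 and 7.16. Both the lowest and the highest of the 6 values belonged to cancer-EVs, and the non-cancer-EVs lay between them. The lowest came from a dim array and the highest from the brightest, so the values still rose with array brightness after normalization. The means were 7.08 ± 0.15 (SD, n = 3) in non-cancer-EVs and 7.06 ± 0.37 (SD, n = 3) in cancer-EVs. The log2 fold change, cancer-EVs minus non-cancer-EVs, was -0.022 with a standard error of 0.21 and a 95% interval from -0.50 to 0.46. In linear terms the interval runs from 1.42-fold lower to 1.37-fold higher. The adjusted p from limma was 0.979 after Benjamini-Hochberg adjustment over all probes tested. The sign of this difference was not stable. It was 0.18 without cancer-EVs 1 and 0.038 without non-cancer-EVs 3 but -0.17 without cancer-EVs 2. With all arrays it was 0.057 after cyclic loess normalization and 0.079 without normalization. With array brightness as a covariate it was -0.092, with a standard error of 0.17.

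Gsdmd was the steadiest of the 3 genes. Its log2 signal was 6.59, 6.57 and 6.60 in non-cancer-EVs 1, 2 and 3, a range of 0.032. In cancer-EVs it was 6.65, 6.48 and 6.35, a range of 0.29. Cancer-EVs 1 lay above all non-cancer-EVs and cancer-EVs 2 and 3 below them, so the groups overlapped. The means were 6.59 ± 0.016 (SD, n = 3) in non-cancer-EVs and 6.50 ± 0.15 (SD, n = 3) in cancer-EVs. The log2 fold change was -0.093 with a standard error of 0.14 (limma adjusted p = 0.841). Its 95% interval from -0.43 to 0.24 runs from 1.34-fold lower to 1.18-fold higher. Without cancer-EVs 1 the log2 fold change was -0.17, and without cancer-EVs 3 it was -0.023. It was -0.016 after cyclic loess normalization and turned to 0.014 without normalization. Whether the spread of Gsdmd or of Il2 differed between the groups was not tested.

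H2-M2 had the largest difference of the 3. Its log2 signal was 10.38, 10.23 and 10.08 in non-cancer-EVs 1, 2 and 3 and 9.94, 9.71 and 10.11 in cancer-EVs 1, 2 and 3. Cancer-EVs 1 and 2 lay below every non-cancer-EVs value, whereas cancer-EVs 3 lay just above non-cancer-EVs 3, so the groups overlapped by that pair. The means were 10.23 ± 0.15 (SD, n = 3) and 9.92 ± 0.20 (SD, n = 3). The log2 fold change was -0.31 with a standard error of 0.17 and a 95% interval from -0.70 to 0.075, which runs from 1.62-fold lower to 1.05-fold higher. The limma adjusted p was 0.689. An exact permutation test of the difference, two-sided, gave p = 0.2, where 3 arrays against 3 cannot give less than 0.1. Without cancer-EVs 2, the array with the lowest value, the log2 fold change was -0.20, and without cancer-EVs 3 it was -0.41. Cyclic loess normalization brought it to -0.17.

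**Figure D2:**
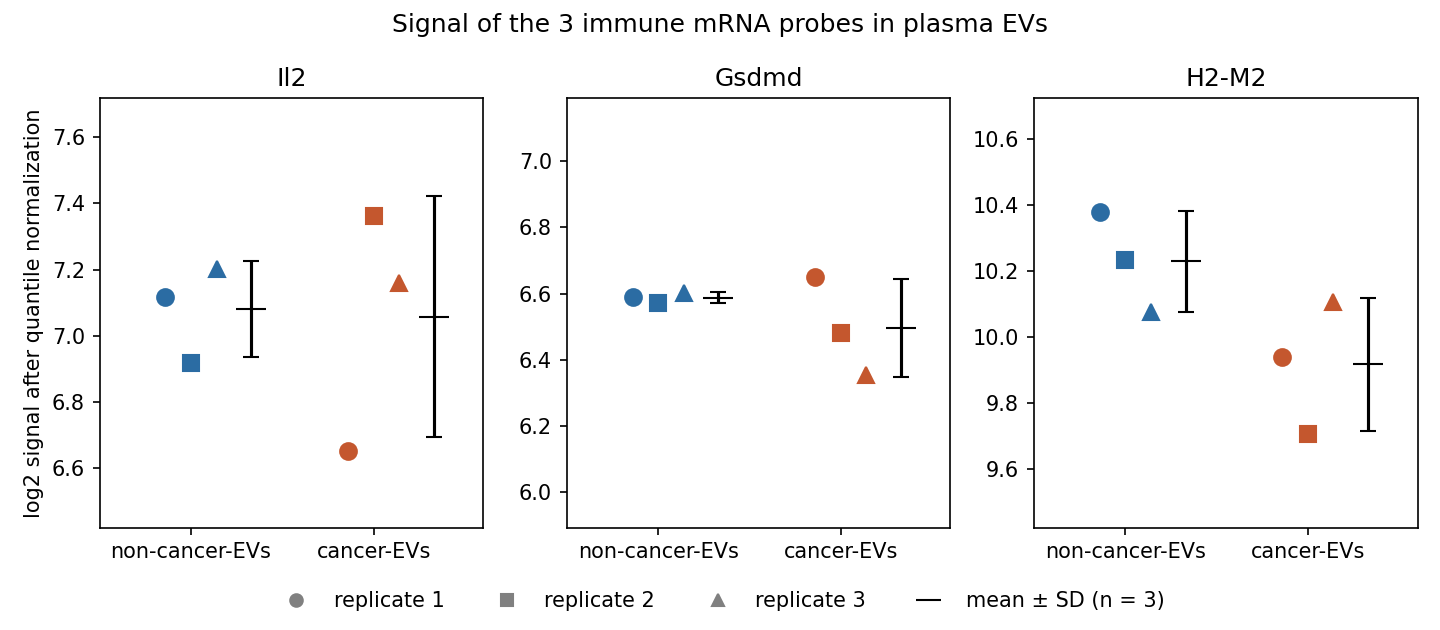
Log2 signal after quantile normalization of the Il2, Gsdmd and H2-M2 probes on each array (symbols by replicate number, blue for non-cancer-EVs and orange for cancer-EVs), with the group mean ± SD (n = 3) in black. Each panel spans the same length of the log2 scale. The groups overlap for all 3 genes, most narrowly for H2-M2, and the Gsdmd values of non-cancer-EVs span only 0.032.

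At the cutoffs of the study's methods, which ask for a fold change above 1.4 together with an unadjusted p below 0.05, limma called 0 of the 3 genes. The background was 4.75% of all 13801 probes tested and 8.51% of the 47 mRNA probes tested. By unadjusted p alone, limma put 0 of the 3 below 0.05, against 6.9% of all probes and 10.6% of the mRNA probes. The methods' t-test also put 0 of the 3 there, against 5.7% and 8.51%. The groups did not overlap for 0 of the 3 genes, against 13.2% of all probes with a value on every array and 12.8% of the mRNA probes. Over all probes the median log2 fold change was -0.069, and over the mRNA probes it was 0.20, with 31 of the 47 above 0. The values of Il2, Gsdmd and H2-M2 were all below 0 and thus below the median of the mRNA probes. Among the 47, H2-M2 ranked 15 by p, Gsdmd 37 and Il2 45.

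The 3 genes were also set against each other within each array, where a factor common to all probes of the array cancels. The log2 signal of Il2 minus that of Gsdmd was 0.53, 0.35 and 0.60 in non-cancer-EVs and 0.0028, 0.88 and 0.80 in cancer-EVs. This within-array difference was 0.071 higher in cancer-EVs (exact permutation p = 0.9). The difference of Gsdmd minus H2-M2 changed by 0.22 between the groups (exact permutation p = 0.3) and that of Il2 minus H2-M2 by 0.29 (exact permutation p = 0.6). In all 4 pairs were compared, the fourth being that of H2-M2 and H2-Q7, and after Benjamini-Hochberg adjustment the exact p-values were between 0.6 and 0.9. With 3 arrays against 3 the exact p cannot go below 0.1, so no pair could have passed 0.05 and the test does not show whether the genes changed alike.

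The other genes of their pathways are nearly absent from this array. Of 18 genes of interleukin-2 signaling and T cells the array held only Il2, and of 15 genes of pyroptosis only Gsdmd. Of 18 genes of class I antigen presentation it held 2, H2-M2 and H2-Q7, and limma called neither. H2-Q7 encodes another nonclassical class I molecule, part of the Qa-2 antigen, and has close paralogs whose RNA the probe may also bind. For H2-M2, of the same gene family, binding of related RNA was not checked either, as probe sequences were not at hand. Its log2 signal was 6.67, 8.10 and 7.93 in non-cancer-EVs 1, 2 and 3 and 8.69, 8.55 and 7.57 in cancer-EVs 1, 2 and 3. Non-cancer-EVs 1 was the lowest of these, and the groups overlapped. The log2 fold change of H2-Q7 was 0.71 with a standard error of 0.43 (limma adjusted p = 0.694), so the point estimates of the 2 class I genes had opposite signs. The log2 signal of H2-M2 minus that of H2-Q7 was 2.66 ± 0.91 (SD, n = 3) in non-cancer-EVs and 1.65 ± 0.77 (SD, n = 3) in cancer-EVs. The groups differed by -1.02 in this value (exact permutation p = 0.3, where the smallest possible is 0.1).

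**Figure D3:**
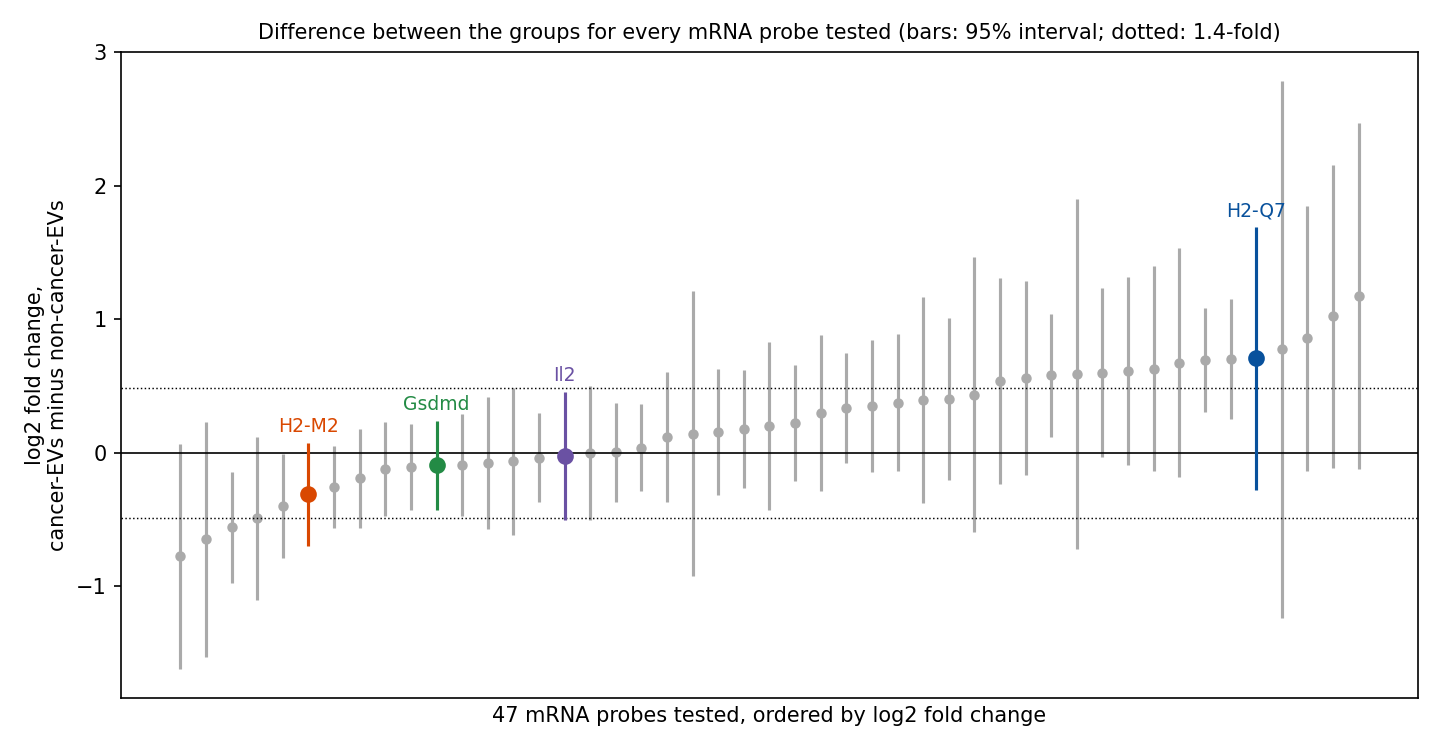
Log2 fold change of cancer-EVs over non-cancer-EVs (points) with 95% intervals from limma (bars) for the 47 mRNA probes tested, ordered by size, with dotted lines at a fold change of 1.4. Il2, Gsdmd and H2-M2 lie among the lower values with intervals that include 0, and H2-Q7 lies near the upper end with a wide interval that also includes 0.

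Markers of the cells that feed plasma EVs could be checked only in part. The array held 0 of 7 lymphocyte, 0 of 5 myeloid and 0 of 5 platelet markers, so the cells behind the Il2, Gsdmd and H2-M2 signals were not resolved. None of 6 EV markers was on it either, and the EV label could not be checked. Of the 8 red cell markers it held Prdx2, a peroxiredoxin abundant in red cells, whose cancer-EVs minus non-cancer-EVs difference was -0.77 on the log2 scale with a standard error of 0.36 (limma adjusted p = 0.689). Of the 6 liver markers it held Apoe, a lipoprotein component, where the corresponding value was -0.090 with a standard error of 0.17 (limma adjusted p = 0.866). In such bulk samples, fewer EVs of a cell type and less RNA per EV cannot be told apart.

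Some of the mRNA probes whose log2 signals followed each gene most closely over the 6 arrays are given as a description, ranked by Pearson r among 46 probes, with no test. For Il2 these included Anxa8 (r = 0.88), an annexin, and Spats1 (r = 0.74). For Gsdmd they were Cav2 (r = 0.96), a caveolin, Dnajc11 (r = 0.78) and Prdx2 (r = 0.70). For H2-M2 they were Gm9789 (r = 0.94), Hyal3 (r = 0.78), a hyaluronidase family member, and Dnajc11 (r = 0.62). The points share their arrays and the normalization. With the group means taken out, r was 0.93 for Il2 with Anxa8, 0.95 for Gsdmd with Cav2 and 0.86 for H2-M2 with Gm9789, while that of H2-M2 with Dnajc11 was 0.014. None of the 3 genes was among the closest of another, and r between them was -0.55 for Il2 and Gsdmd, -0.20 for Il2 and H2-M2 and 0.17 for Gsdmd and H2-M2. With the group means taken out these were -0.65, -0.34 and -0.30, so the sign for Gsdmd and H2-M2 turned.

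The arrays came from 1 slide scan but from 2 rows of the slide. Row 1 held non-cancer-EVs 1 and all cancer-EVs, and row 2 held non-cancer-EVs 2 and 3. Within row 1, where 1 array stood against 3 and no test was made, the difference in log2 signal was -0.060 for Il2, -0.095 for Gsdmd and -0.46 for H2-M2. With the row as a block, the limma estimate for H2-M2 is this same contrast of 1 array with 3, the row 2 arrays adding only to the estimate of the spread, and the lone array is assumed to vary like the others (adjusted p = 0.317). Row 2 held no cancer-EVs and so gave no value of its own.

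**Figure D4:**
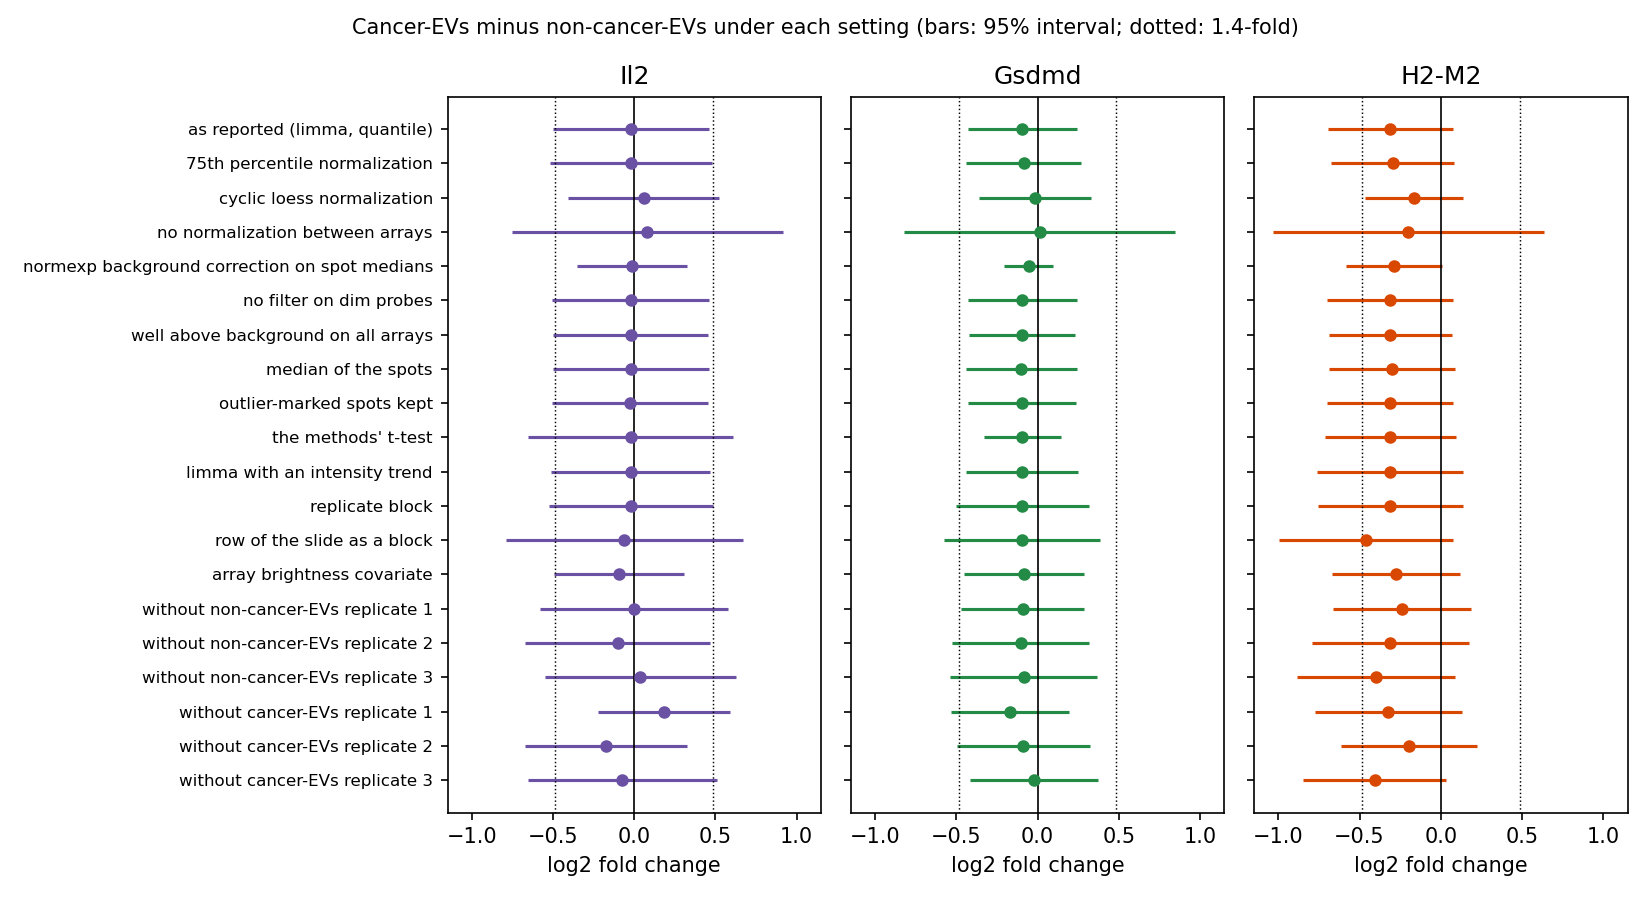
Log2 fold change of cancer-EVs over non-cancer-EVs for Il2, Gsdmd and H2-M2 (points) with 95% intervals (bars) under the reported setting and 19 others that change the values, the samples or the test, with dotted lines at a fold change of 1.4. Every interval includes 0, H2-M2 stays below 0 throughout, and Il2 lies on either side of it.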

How the data were processed

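Groups and replicate numbers came from the disease and title labels. The labels name mouse as the organism, although their treatment text speaks of volunteers. The authors deposited, per array, Feature Extraction 11.0.1.1 output, from which the background-subtracted and detrended intensity of each spot was taken, on a linear scale without normalization between arrays. A second deposited table, of log2 values, holds none of the mRNA probes and was not used. Spots of controls or with outlier marks were dropped, intensities were quantile normalized over 6 arrays following the study's methods, floored at 1 and log2 transformed, and spots were averaged per probe. Probes well above background on 3 or more arrays (where a probe has several spots, in at least 50% of them) entered one limma 3.58.1 fit (R 4.3.3, lmFit and eBayes, no covariates, two-sided) with Benjamini-Hochberg adjustment over all of them. The fit was tested on simulated data. All 3 probes passed the filter. Intervals are limma's 95% intervals. Accessions were matched without versions to RefSeq genes of GRCm38.p6, 46 of 50 mRNA probes matching. No coordinates are given, because the array design names another build. Genes named beside the 3 are those on the pathway and marker lists and the 3 mRNA probes of highest r with each gene, of which 1 is not reported here. The genes and lists were chosen with earlier results of these data known. The number of arrays limits the precision.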

Additional observations from a re-analysis of the deposited data

How the results depend on the processing

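None of 20 alternatives per gene, which covered normalization, background correction, filters, spot summary, test, adjustment, array brightness, slide row, replicate block and leaving out each array, brought Il2, Gsdmd or H2-M2 past the cutoffs. H2-M2 was below 0 in all 20, from -0.46 with slide row as a block to -0.17 with cyclic loess, with adjusted p between 0.294 and 1.00. Normexp background correction on spot medians gave it the smallest p, 0.056, at a log2 fold change of -0.29. Gsdmd turned to 0.014 without normalization between arrays, and Il2 to 0.079 there and to 0.057 with cyclic loess; the cause was not tested. With each array left out in turn, Il2 ranged from -0.17 to 0.18, Gsdmd from -0.17 to -0.023 and H2-M2 from -0.41 to -0.20, Il2 being above 0 without non-cancer-EVs 3 (0.038) or cancer-EVs 1 (0.18). Deviations of arrays sharing a number had r of 0.090, 0.25 and -0.22, and no pairing was assumed. Under the replicate block none of the 3 genes was called, H2-M2 stayed at -0.31 (limma adjusted p = 0.699), and 975 of all probes passed both cutoffs (74.3% higher), 6 of all probes with an adjusted p below 0.05 against 0 as reported, 96 without normalization and 1 with normexp. Over all probes 656 passed both cutoffs as reported, 64.0% of them higher. This count became 223 with normexp (50.2% higher), 273 with Student's t-test (49.1% higher) and 2334 with the slide row (52.3% higher). With 1 array left out it ranged from 388 to 1166. The low end was cancer-EVs 2 left out (396 for non-cancer-EVs 1). The high end was cancer-EVs 3 left out (1062 for cancer-EVs 1). The share higher was 76.8% with cyclic loess and 93.5% without normalization. The slide or scan as a block was not run, as 1 scan held all arrays. All spots of the 3 probes were well above background, and precision is limited by 3 arrays per group.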
